A study of Mus musculus with 8 samples.

Results

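Primitive endoderm genes were examined in IPO13+/+ and IPO13-/- mouse embryonic stem cells (ESCs) with and without oxidative stress. The members are 10 genes used as markers of the primitive endoderm and its descendants, Gata4, Gata6, Sox17, Sox7, Pdgfra, Dab2, Foxa2, Lama1, Cubn and Amn, taken by symbol from the 23420 rows of the count tables. All 10 were found, had at least 11 counts in every library, and were tested. The changes that stood out were in the receptor genes. Transcripts of Cubn, the endocytic receptor cubilin, stood in untreated IPO13-/- cells at 0.196 times their level in untreated IPO13+/+ cells and rose 3.76-fold in IPO13-/- cells after H2O2. Those of Amn, its membrane partner amnionless, were higher in IPO13-/- cells under both conditions, while Dab2 and Lama1 were lower. The Dab2 differences, and the untreated one of Lama1, missed the threshold in some of the alternative fits described below.

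The primitive endoderm is an epithelium that separates from the pluripotent epiblast in the late blastocyst, when FGF4 made by epiblast precursors activates FGF receptors and GATA6 displaces NANOG. GATA4, SOX17 and SOX7 act downstream of GATA6, and the cells depend on PDGFRA. The epithelium then gives rise to the visceral endoderm, which takes up maternal nutrients through megalin, cubilin and amnionless with the adaptor DAB2, and to the parietal endoderm, which secretes the laminin-rich Reichert's membrane. ESCs are the culture counterpart of the epiblast and transcribe most of these genes at low levels.

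RNA-seq was performed on 8 libraries in 4 groups of 2, of ESCs derived from day 5 preimplantation blastocysts of 129 x C57BL/6 background. The groups were untreated IPO13+/+ cells, IPO13+/+ cells exposed to 125 µM H2O2 for 1 h and left for 2 h in fresh medium, and untreated and treated IPO13-/- cells, which lack importin 13, a carrier that moves proteins into and out of the nucleus. All were grown without feeders on gelatin with serum and LIF. Whether each genotype was 1 clone, and whether replicates came from separate cultures, is not given in the sources used here, so p-values measure the spread between these libraries, which may be technical.

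Between 60397877 and 73789079 reads were counted per library, and 3 counts, taken as the smallest amount told from 0, equal 0.0407 to 0.0497 CPM (counts scaled to a common library total), which covers counting error only. Ipo13 transcripts were at 68.3 to 72.4 CPM in the 4 IPO13+/+ and 24.9 to 25.9 CPM in the 4 IPO13-/- libraries, lower by 1.44 on the log2 scale in untreated cells (SE 0.05, edgeR FDR = 9.5e-19). The summed level of 10 ESC markers was 7140 to 7410 CPM in IPO13+/+ and 6200 to 6460 CPM in IPO13-/- libraries. That of 6 trophectoderm markers was 53.8 to 66.1 and 76.4 to 97.0 CPM. Much of each difference lay in 1 gene, named after its values were seen. Tfap2c averaged 43.7 and 79.2 CPM in untreated IPO13+/+ and IPO13-/- cells, and the ESC marker Dppa5a 1942 and 1294 CPM. At an edgeR FDR below 0.05, 2 trophectoderm markers were higher and 1 lower in untreated IPO13-/- cells (median log2 fold change -0.27). Of the ESC markers, 3 were higher and 5 lower. Among treated cells these counts were 3 and 1 (median 0.19), and 2 and 2. The 6 fibroblast markers together reached 6.25 to 9.23 CPM, with Col3a1 and Lum at 3 counts or fewer in all 8 libraries. The summed level of the members was 134 to 208 CPM, most of it Lama1. The part of these marker differences in the results below was not tested. In bulk RNA, fewer cells of a type and less RNA per cell cannot be told apart.

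All differences are from edgeR's quasi-likelihood test in 1 fit of the 8 libraries, over 19424 genes, with false discovery rates (FDR) adjusted over all of them. A gene passed the test at an FDR below 0.05, and was called 2-fold changed if it also differed at least 2-fold. CPM are scaled by the trimmed mean of M-values (TMM). The fit shares its estimate of spread over the 4 groups, whose replicates differed unevenly. Their mean chi-square per gene, against counts split by library total, was 15 in untreated and 2.26 in treated IPO13+/+ cells. In untreated and treated IPO13-/- cells it was 4.58 and 6.59. A shared spread can understate that of untreated IPO13+/+ cells.

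Per kilobase of exon, the members spanned a wide range of levels. In untreated IPO13+/+ cells, Lama1 stood at 17.3 ± 1.89 CPM per kilobase (SD, n = 2), Sox7 at 4.92 ± 0.335, Amn at 1.09 ± 0.151 and Gata4 at 0.492 ± 0.0758. This order of the top 4 held in every group, and the libraries of neighbours in it never overlapped. The other 6 members lay between 0.0952 and 0.197 CPM per kilobase in these cells, and of the neighbours among them only Gata6 and Pdgfra did not overlap. Cubn was the lowest member in 3 groups, at 0.0952 ± 0.0305, 0.066 ± 0.0111 and 0.019 ± 0.00816 CPM per kilobase in untreated IPO13+/+, treated IPO13+/+ and untreated IPO13-/- cells. In treated IPO13-/- cells, at 0.07 ± 0.00974, it ranked ninth and its libraries overlapped those of Sox17 at 0.0679 ± 0.00453.

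**Figure D1:**
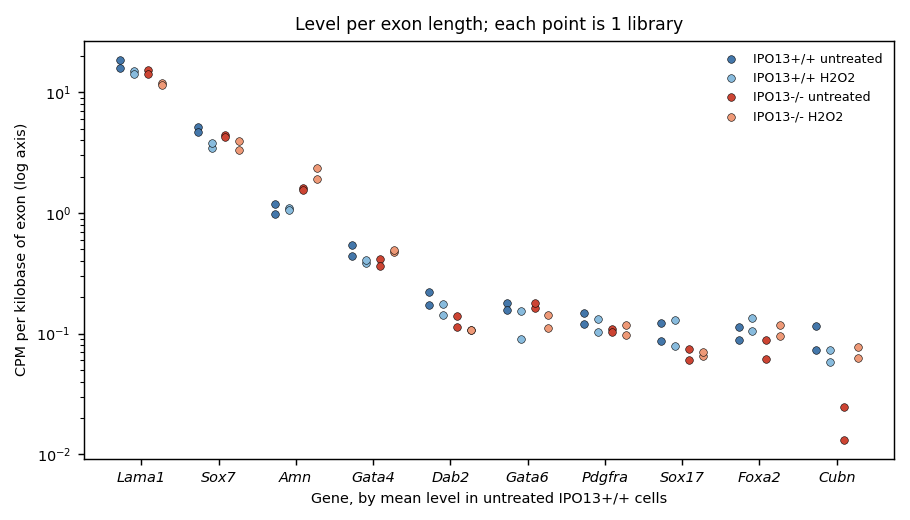
Level of each member in CPM per kilobase of exon, on a log axis, with 1 point per library and colours for the 4 groups. Lama1 and Sox7 lie highest, and the 2 untreated IPO13-/- libraries of Cubn lie below all other points.

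The receptor genes were described first. Cubilin is a large peripheral protein that binds vitamin B12 with intrinsic factor, lipoproteins and albumin, and amnionless anchors it in the membrane and carries it to the surface. DAB2 links such receptors to clathrin. Cubn lies at chr2:13276338-13491813 on the minus strand (mm10), Amn at chr12:111271095-111276426 and Dab2 at chr15:6299788-6440712, both on the plus strand. Since the transcripts of these partners moved differently between the genotypes, the 250 bases before their annotated starts are shown, 5′ to 3′ on the gene's strand, from RefSeq on GRCm38.p6. Windows of this kind for Gata4, Gata6, Sox17, Sox7 and Lama1 were not used here. The windows shown are chr2:13491877-13492126 for Cubn, chr12:111270846-111271095 for Amn, and chr15:6299539-6299788 and chr15:6386498-6386747 for the first and second Dab2 start. Capitals mark the motifs searched on both strands, the GATA motif AGATAA and its variant TGATAA, the SOX motif ACAATG, the core GCGTG bound by AHR with ARNT, and the GC box GGGCGG.

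Cubn: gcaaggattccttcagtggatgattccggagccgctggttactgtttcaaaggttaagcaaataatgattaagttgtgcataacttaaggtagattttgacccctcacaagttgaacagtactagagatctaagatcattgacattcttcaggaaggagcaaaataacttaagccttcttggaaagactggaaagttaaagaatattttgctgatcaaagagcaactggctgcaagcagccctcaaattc

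Amn: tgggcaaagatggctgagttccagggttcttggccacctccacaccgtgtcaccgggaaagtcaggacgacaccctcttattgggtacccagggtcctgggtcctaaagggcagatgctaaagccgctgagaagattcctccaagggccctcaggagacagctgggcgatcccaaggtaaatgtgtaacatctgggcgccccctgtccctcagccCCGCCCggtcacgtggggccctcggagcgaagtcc

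Dab2, first start: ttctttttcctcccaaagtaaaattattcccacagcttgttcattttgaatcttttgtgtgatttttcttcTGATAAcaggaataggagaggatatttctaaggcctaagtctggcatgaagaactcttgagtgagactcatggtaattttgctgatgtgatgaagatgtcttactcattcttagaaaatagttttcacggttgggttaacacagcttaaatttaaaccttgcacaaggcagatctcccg

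Dab2, second start: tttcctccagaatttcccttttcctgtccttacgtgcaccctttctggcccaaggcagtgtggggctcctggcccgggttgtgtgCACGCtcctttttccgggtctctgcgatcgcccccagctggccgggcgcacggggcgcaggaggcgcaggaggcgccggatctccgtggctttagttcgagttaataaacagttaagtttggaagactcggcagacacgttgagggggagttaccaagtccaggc

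None of these letters occurred in the Cubn window, which had a GC content of 39.6%. The Amn window, with a GC content of 61.2%, held 1 GC box, the first Dab2 window 1 GATA motif and the second 1 GCGTG. Of 32851 RefSeq windows of this length, 16.6% held the GATA, 10.7% the SOX, 28.2% the GCGTG and 32.7% the GC box motif, so each is common. A match is a description only.

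Cubn was counted 117 and 77 times in untreated IPO13+/+ libraries, 75 and 60 times after H2O2, 15 and 23 times in untreated IPO13-/- libraries and 61 and 71 times in treated IPO13-/- libraries. As CPM these are 1.74 and 1.10, 1.10 and 0.868, 0.198 and 0.371, and 0.942 and 1.15. Both untreated IPO13-/- libraries lay below the other 6, which overlapped one another.

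Without treatment, Cubn was lower in IPO13-/- cells by 2.35 on the log2 scale (log2 fold change -2.35, SE 0.27, 95% interval -2.90 to -1.80, FDR = 5.1e-08). After H2O2 it rose in IPO13-/- cells by 1.91 (SE 0.29, 95% interval 1.32 to 2.51, FDR = 8.4e-06). In IPO13+/+ cells the log2 fold change was -0.52 (SE 0.20, FDR = 0.055), which did not pass. Leaving out single libraries, it ran from -0.82 to -0.16. After treatment the genotypes stood at 0.985 ± 0.166 CPM in IPO13+/+ and 1.05 ± 0.145 CPM in IPO13-/- cells (SD, n = 2), a log2 difference of 0.08 with a 95% interval of -0.36 to 0.53 (FDR = 0.82). The responses of the genotypes differed by 2.43 on the log2 scale (SE 0.35, interaction FDR = 9.8e-05). Without the first untreated IPO13-/- library this difference was 1.99 and no longer passed (FDR = 0.11), while the untreated genotype difference and the rise after H2O2 passed without any single library.

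Amn was counted 121 and 154 times in untreated and 137 and 135 times in treated IPO13+/+ libraries, against 225 and 177 and then 227 and 267 in IPO13-/- libraries. These equal 1.80, 2.20, 2.01 and 1.95 CPM in IPO13+/+ cells, and 2.97, 2.85, 3.51 and 4.32 CPM in IPO13-/- cells. All 4 IPO13-/- libraries lay above all 4 IPO13+/+ libraries. Amn was higher in IPO13-/- cells by a log2 fold change of 0.54 untreated (SE 0.12, FDR = 0.00089) and of 0.98 after H2O2 (SE 0.12, FDR = 1.9e-07), and passed under every alternative in both. It rose after H2O2 in IPO13-/- cells (0.42, SE 0.11, FDR = 0.0044) but not in IPO13+/+ cells (-0.02, SE 0.13, FDR = 0.99), and the difference between these responses did not pass (0.44, SE 0.17, interaction FDR = 0.21). The rise in IPO13-/- cells was 0.28 and did not pass without the second treated IPO13-/- library (FDR = 0.15). It kept its size but missed the threshold without the first (0.46) or second (0.41) untreated one (FDR = 0.060 in both fits).

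Dab2 was counted 109 and 89 times in untreated and 72 and 89 times in treated IPO13+/+ libraries, and 63, 64, 51 and 49 times in the IPO13-/- libraries. The IPO13-/- libraries of each condition lay below the IPO13+/+ ones, at 0.832 and 1.03 against 1.62 and 1.27 CPM untreated, and at 0.788 and 0.792 against 1.06 and 1.29 CPM treated. Dab2 was lower by a log2 fold change of -0.65 (SE 0.17, FDR = 0.0031) untreated and -0.57 (SE 0.19, FDR = 0.017) treated. The untreated difference did not pass without the first untreated library of IPO13+/+ (-0.46, FDR = 0.076) or of IPO13-/- cells (-0.47, FDR = 0.13). The treated one did not pass without the second treated IPO13+/+ library (-0.42, FDR = 0.20). Without the first or second treated IPO13-/- library it kept its size, at -0.57 in both fits, with an FDR of 0.0815 and 0.0739.

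**Figure D2:**
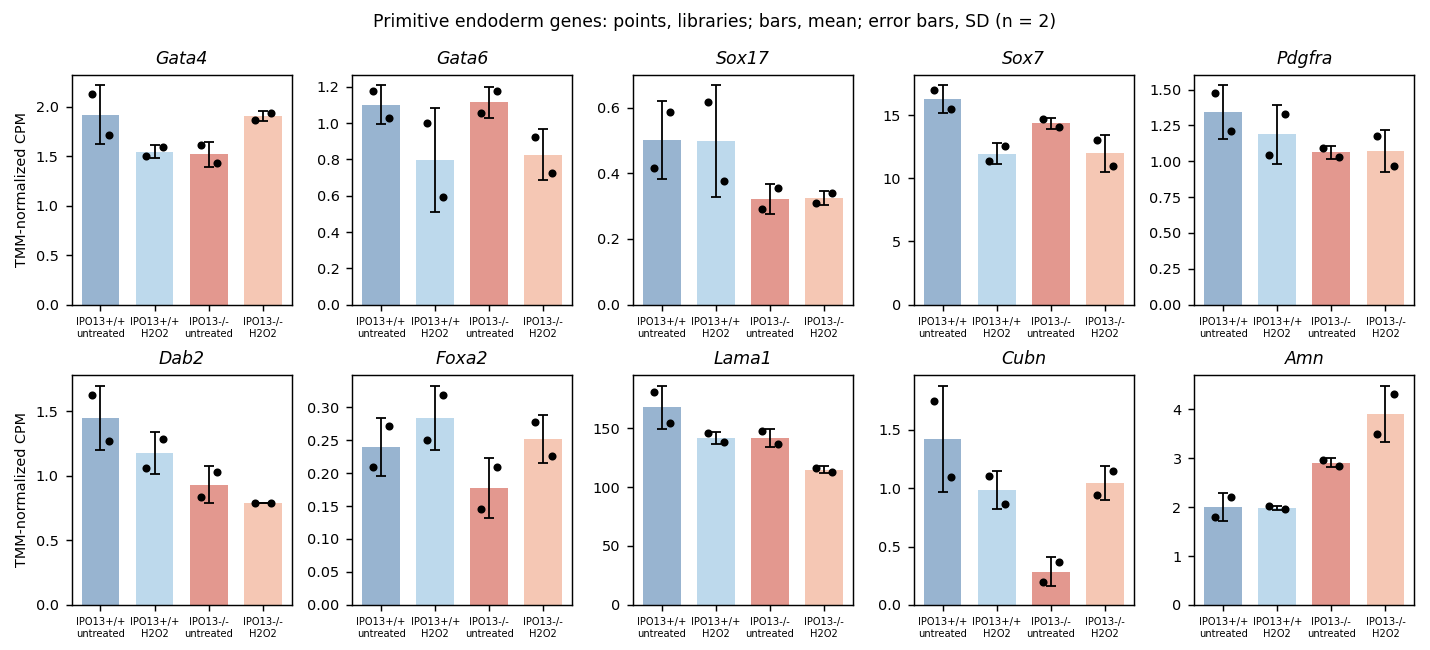
TMM-normalized CPM of the 10 members in the 4 groups, with points for libraries, bars for means and error bars for SD (n = 2). Cubn is lowest in untreated IPO13-/- cells, at a mean of 0.284 CPM, and Amn is highest in treated IPO13-/- cells, at 3.91 CPM.

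The partners of this receptor did not share a direction. Of 12 tested partners and adaptors, 3 were higher and 5 lower in untreated IPO13-/- cells (18.7% and 19.4% of all genes), 4 higher and 3 lower in treated ones (19.1% and 17.5%). With library totals in place of TMM the untreated counts were 5 higher and 4 lower. Lrp2, which encodes megalin and was named after its values were seen, was higher in IPO13-/- cells (0.63 and 0.49, FDR = 3.1e-08 and 4.8e-06) at 16.6 CPM in untreated IPO13+/+ and 25.7 CPM in untreated IPO13-/- cells.

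Cubn lies on chromosome 2, whose 914 expressed genes were at a median log2 fold change of 0.27 in untreated and 0.30 in treated IPO13-/- against IPO13+/+ cells, with those of the other chromosomes at -0.04 and -0.01. Its nearest 2 expressed genes on each side, looked up after its values were seen, were all higher in untreated IPO13-/- cells. Rsu1, 4.92 kb away, stood at 0.43 and Pter, 273 kb away, at 1.39, while on the other side Trdmt1, 17.2 kb away, stood at 0.42 and Vim, 82.1 kb away, at 1.17 (all FDR at or below 4.7e-06). Foxa2 lies on the same chromosome. The part of the chromosome in the results of Cubn, Foxa2 and any other named gene on it was not tested.

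**Figure D3:**
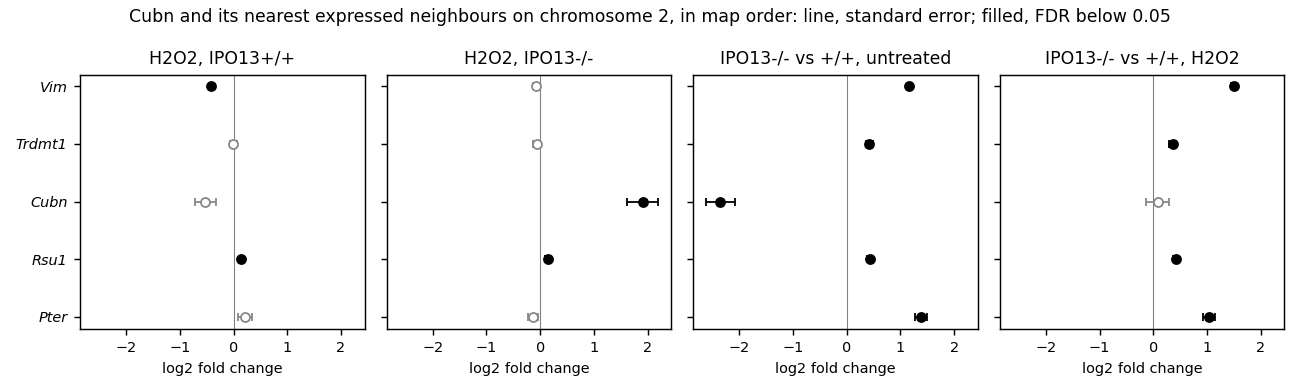
Log2 fold changes of Cubn and its nearest expressed neighbours in 4 comparisons, with lines for standard errors and filled points for an FDR below 0.05. In untreated IPO13-/- cells Cubn is at -2.35 while Pter and Vim are at 1.39 and 1.17.

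Over the 8 libraries, the log2 CPM of Cubn was most like those of Clstn1 (Pearson r = 0.986), Cct4 (0.977) and Nr0b1 (0.974), among 15200 genes compared. These are descriptions over libraries that share groups. Nr0b1, which encodes the nuclear receptor DAX1 of ESCs, averaged 394 and 372 CPM in untreated and treated IPO13+/+ cells and 317 and 380 CPM in the corresponding IPO13-/- cells, and Clstn1, a calsyntenin, 118, 117, 108 and 117 CPM. Both were picked by their correlation with Cubn, so that being lowest in untreated IPO13-/- cells follows from the choice. Their differences were far smaller than that of Cubn.

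Laminin alpha 1, encoded by Lama1 at chr17:67697259-67822647, is a chain of the laminin of early basement membranes. It was the most abundant member, at 181 and 155 CPM in untreated and 146 and 138 CPM in treated IPO13+/+ libraries, and at 147 and 137, then 117 and 112 CPM in IPO13-/- libraries. The libraries of the groups compared never overlapped. Lama1 fell after H2O2 in IPO13+/+ (-0.24, SE 0.05, FDR = 0.0012) and in IPO13-/- cells (-0.31, SE 0.05, FDR = 6.2e-05), and was lower in IPO13-/- cells untreated (-0.24, SE 0.05, FDR = 0.00073) and treated (-0.31, SE 0.05, FDR = 4.4e-05). The response of IPO13+/+ cells did not pass without the first untreated (log2 fold change -0.12, FDR = 0.051) or the second treated library of these cells (-0.20, FDR = 0.052), nor in a fit of only the libraries compared (-0.21, FDR = 0.082), and the untreated genotype difference did not pass without the second untreated IPO13-/- library (-0.18, FDR = 0.10).

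Genes of the basement membrane and the parietal endoderm were lower in IPO13-/- cells in larger number than higher. Of 18, 12 were lower and 2 higher in untreated cells, where 19.4% of all genes were lower and 18.7% higher. In treated cells 11 were lower and 1 higher, with 17.5% and 19.1% of all genes. The medians of the 18 genes, -0.32 and -0.25, compare with 0 over all genes tested in both comparisons. The shares are over 19424 genes, of which 12198 averaged at least 1 CPM, and were not matched for level. Genes with more counts pass more readily, and the list was chosen with earlier results of these data known. The laminin chains Lamb1 and Lamc1, the collagen gene Col4a1, the nidogen gene Nid1 and the collagen chaperone gene Serpinh1, named after their values were seen, were at -0.46, -0.36, -0.32, -0.41 and -0.78 untreated. The keratin gene Krt19 was lower by over 2-fold in both conditions (-1.29, SE 0.09, FDR = 5.8e-12 and -1.24, SE 0.08, FDR = 2.9e-12), and Krt8 by over 2-fold in untreated cells (-1.25, SE 0.08, FDR = 1.6e-12) and by 0.98 in treated ones (-0.98, SE 0.08, FDR = 1.1e-10). Nid2 and Lamb2, also named after their values were seen, were at 0.16 (FDR = 0.0036) and 0.12 (FDR = 0.12) untreated. After H2O2 the list did not follow Lama1, with 4 higher and 4 lower in IPO13+/+ (11.5% and 13.8% of all genes) and 7 higher and 2 lower in IPO13-/- cells (14.9% and 14.4%). With library totals these were 5 and 2, and 7 and 3.

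**Figure D4:**
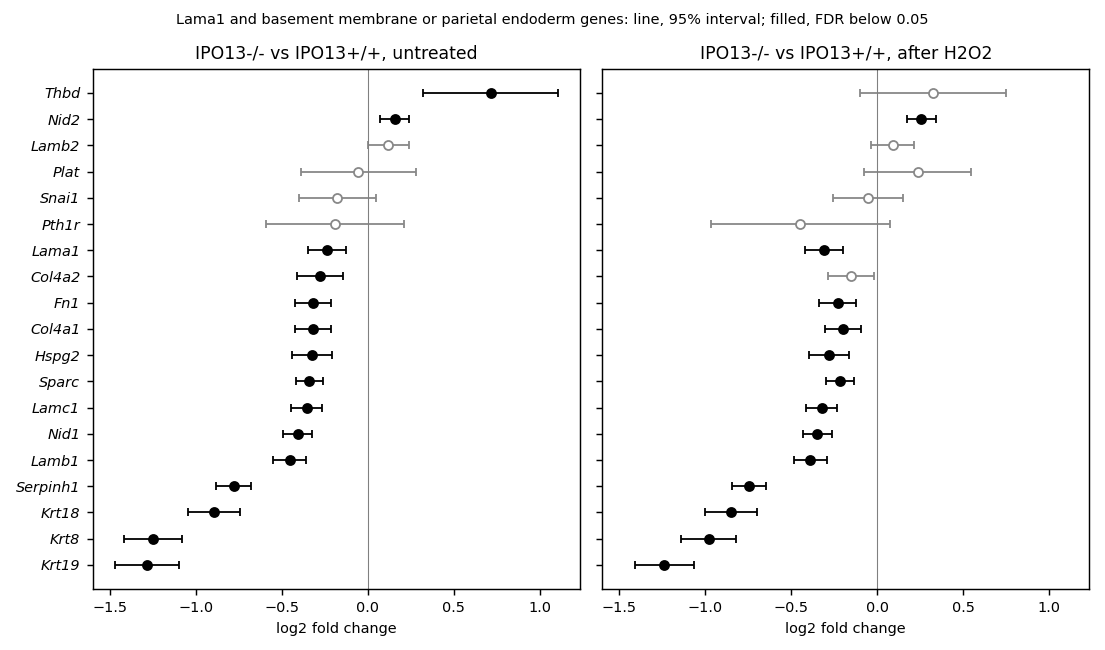
Log2 fold changes of IPO13-/- against IPO13+/+ cells for Lama1 and 18 genes of the basement membrane or parietal endoderm, with lines for 95% intervals and filled points for an FDR below 0.05. Most points lie left of 0 in both panels, from Krt19 at -1.29 untreated to Thbd at 0.71.

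Genes of the visceral endoderm, where cubilin and amnionless act, were mostly at low levels. Of 19 tested, 5 were lower and 1 higher in untreated IPO13-/- cells (19.4% and 18.7% of all genes), and 5 lower and 2 higher in treated ones (17.5% and 19.1%). The share lower lay near that of all genes and the share higher below it. Their median log2 fold changes of -0.34 untreated and -0.34 treated compare with 0 over all genes tested, and were no higher than those of the basement membrane list. Ttr, Cer1 and Apoa4, the last of them not tested, had 3 counts or fewer in all libraries. Lefty1, which encodes a NODAL inhibitor that ESCs also express, was lower by 2.07 on the log2 scale untreated (log2 fold change -2.07, SE 0.07, FDR = 2.5e-19) and by 2.00 treated (-2.00, SE 0.07, FDR = 5.9e-19), with means of 76.3 CPM in untreated IPO13+/+ and 18.3 CPM in untreated IPO13-/- cells. The apolipoprotein gene Apoc2 was lower untreated (-1.06, SE 0.13, FDR = 1.2e-07) and treated (-0.70, SE 0.12, FDR = 5.5e-05). Apob rose after H2O2 in IPO13+/+ cells (1.13, SE 0.22, FDR = 0.00033) and was lower in treated IPO13-/- cells (-1.27, SE 0.23, FDR = 7.3e-05). Afp, under 1 CPM, was higher in the latter (1.26, SE 0.49, FDR = 0.046).

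Among the transcription factors, Sox7 (chr14:63943673-63950732), an F-group SOX gene of the early endoderm, fell after H2O2. It was at 17.0 and 15.5 CPM in untreated and 11.4 and 12.5 CPM in treated IPO13+/+ libraries, and at 14.7 and 14.1, then 13.0 and 10.9 CPM in IPO13-/- libraries. Treated libraries lay below untreated ones in both genotypes. The fall was -0.44 in IPO13+/+ (SE 0.07, FDR = 3.8e-05), which passed under every alternative, and -0.26 in IPO13-/- cells (SE 0.07, FDR = 0.0088), and the difference between them did not pass (0.18, SE 0.10, interaction FDR = 0.45). The fall in IPO13-/- cells was -0.13 and did not pass without the second treated library (FDR = 0.33), and missed the threshold at -0.22 and -0.27 without the first (FDR = 0.19) or second untreated one (FDR = 0.083). Between genotypes Sox7 stood at -0.18 untreated (FDR = 0.054) and 0.00 treated (FDR = 1), the latter with a 95% interval of -0.15 to 0.16. Leaving out single libraries, the untreated difference ran from -0.24 to -0.10.

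Gata4 (chr14:63198922-63271692), a GATA factor of the endoderm and heart, showed opposite tendencies that did not pass. It was at 2.13 and 1.71 CPM in untreated and 1.50 and 1.59 CPM in treated IPO13+/+ libraries, and at 1.61 and 1.43, then 1.87 and 1.94 CPM in IPO13-/- libraries. Treated libraries were below untreated ones in IPO13+/+ and above them in IPO13-/- cells. The log2 fold changes were -0.31 (SE 0.14, FDR = 0.097) and 0.32 (SE 0.14, FDR = 0.091), and their difference was 0.63 (SE 0.19, interaction FDR = 0.082). Leaving out single libraries, this difference ran from 0.46 to 0.78, and the response of IPO13+/+ cells from -0.46 to -0.15. The untreated genotype difference was -0.33 (FDR = 0.060) with all libraries and ran from -0.48 to -0.16.

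Gata6 (chr18:11052064-11085635), the earliest of these factors, had 41 to 80 counts per library. It was at 1.10 ± 0.106 and 0.796 ± 0.287 CPM in untreated and treated IPO13+/+ cells and at 1.12 ± 0.0845 and 0.827 ± 0.141 CPM in IPO13-/- cells (SD, n = 2). Its log2 fold changes after H2O2 were -0.47 (FDR = 0.090) and -0.42 (FDR = 0.13), and between genotypes 0.01 and 0.06, with 95% intervals of -0.37 to 0.40 and -0.39 to 0.51. Leaving out single libraries, the response of IPO13+/+ cells ran from -0.89 to -0.14.

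Sox17 (chr1:4490931-4497354) and Foxa2 (chr2:148042877-148046969), a forkhead factor, were scarce. Sox17 had 26 to 42 counts in IPO13+/+ and 20 to 22 in IPO13-/- libraries, and all 4 of the latter were below all of the former, at log2 differences of -0.65 untreated (SE 0.29, FDR = 0.084) and -0.61 treated (SE 0.30, FDR = 0.12). Leaving out single libraries, the untreated difference ran from -0.87 to -0.38, and the treated one from -0.93 to -0.22. Foxa2 had 11 to 22 counts, and none of its 5 comparisons passed. At these depths its untreated genotype interval ran from -1.26 to 0.34, so that a 2-fold decrease lies within it.

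Pdgfra (chr5:75152292-75198215), the receptor for PDGF-A and PDGF-C, had 60 to 99 counts and passed in no comparison. Its means were 1.34 ± 0.185 and 1.19 ± 0.203 CPM in untreated and treated IPO13+/+ cells and 1.06 ± 0.0460 and 1.07 ± 0.144 CPM in IPO13-/- cells (SD, n = 2). The log2 difference between genotypes was -0.33 untreated (FDR = 0.12) and -0.15 treated (FDR = 0.56). Of 11 genes for the signals upstream of these factors, 3 were higher and 3 lower in IPO13-/- cells in each condition. Of all genes, 17.5% to 19.4% passed in each single direction. With library totals the counts of the 11 were 4 and 2 untreated and 4 and 3 treated. The ligand gene Pdgfc was lower by 1.49 on the log2 scale (log2 fold change -1.49, SE 0.05, FDR = 2.5e-18) untreated and by 1.39 (-1.39, SE 0.05, FDR = 1.5e-17) treated, at 70.0 CPM in untreated IPO13+/+ and 25.0 CPM in untreated IPO13-/- cells. Nanog, whose product opposes GATA6, fell after H2O2 in both genotypes (-0.36 and -0.46, named after its values were seen).

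Of the 13 relatives of the members, 2 were called 2-fold changed. In the response of IPO13+/+ cells 0 were called (2.90% of all genes), and in that of IPO13-/- cells 1 (2.89%). Between genotypes it was 1 untreated (4.71%) and 1 treated (4.56%). At an FDR below 0.05, 3 were higher and 5 lower in untreated IPO13-/- cells (18.7% and 19.4% of all genes). In treated ones 3 were higher and 3 lower (19.1% and 17.5%). With library totals these were 4 and 1, and 3 and 3. Gata2 rose after H2O2 in IPO13-/- cells (1.01, SE 0.09, FDR = 5.2e-10) and by 0.33 in IPO13+/+ cells (FDR = 0.0035). Lama2 was higher in IPO13-/- cells, from 0.117 to 0.354 CPM untreated (1.59, SE 0.39, FDR = 0.0018) and by 1.35 treated (SE 0.38, FDR = 0.0063). Gata6, Sox17, Pdgfra, Dab2 and Cubn share exon bases with genes of the opposite strand that have no row in the count table, 368 bases in the case of Cubn, and whether counting used strand is not given in the sources used here.

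**Figure D5:**
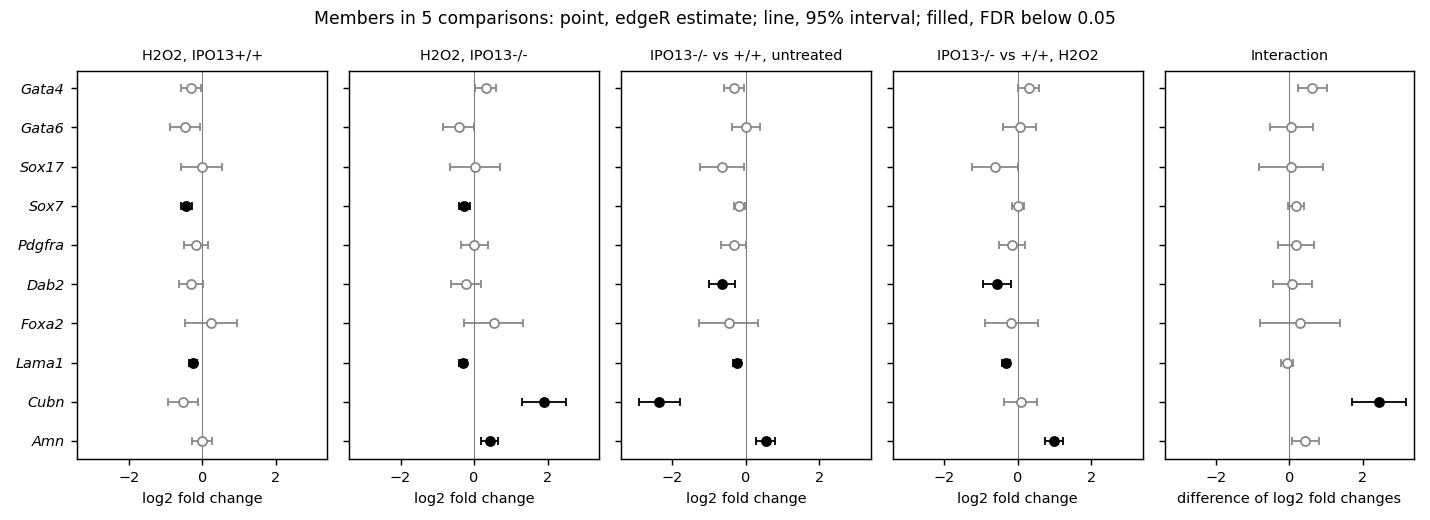
Log2 fold changes of the 10 members in 5 comparisons, with lines for 95% intervals and filled points for an FDR below 0.05. Cubn is at -2.35 and 2.43 in the untreated genotype comparison and the interaction, and most other members lie within 1 of 0.

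Markers of other lineages moved in several directions. At an FDR below 0.05, 1 of 8 mesendoderm markers was higher and 1 lower in IPO13-/- cells in each condition. The lower one was Eomes (-0.42 untreated and -0.55 treated), named after its values were seen. Of 6 fibroblast markers, 0 were higher and 1 lower untreated, and 2 higher and 1 lower treated. Of all genes, 17.5% to 19.4% passed in each single direction. T, Mixl1 and Gsc had few counts, at 10 to 51, 14 to 39 and 26 to 78 per library. T, a mesoderm factor, was higher in IPO13-/- cells (1.25, SE 0.32, FDR = 0.0025 untreated and 1.11, SE 0.39, FDR = 0.025 treated), as was the neural factor gene Pax6 (1.40, SE 0.11, FDR = 1.3e-10 and 1.13, SE 0.16, FDR = 2.4e-06), which fell after H2O2 in IPO13-/- (-1.26, SE 0.11, FDR = 1.3e-09) and IPO13+/+ cells (-0.98, SE 0.16, FDR = 3.7e-05). Sox1 was lower in IPO13-/- cells untreated (-0.95, SE 0.08, FDR = 1.5e-10) and treated (-1.22, SE 0.09, FDR = 2.0e-11), and Col1a1 in both conditions (-1.07, SE 0.16, FDR = 5.1e-06 and -1.41, SE 0.13, FDR = 1.8e-09). Gsc fell after H2O2 in IPO13+/+ (-1.05, SE 0.21, FDR = 0.00045) and IPO13-/- cells (-1.03, SE 0.22, FDR = 0.00061), and Mixl1 in the latter (-1.11, SE 0.31, FDR = 0.0072), at -0.03 in the former (FDR = 1).

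Set against all genes, the members passed in shares that are read by count only. After H2O2 in IPO13+/+ cells 0 of 10 were called 2-fold changed (edgeR, with 5 at an unadjusted p below 0.05, and 0 by limma-voom and DESeq2), where 2.90% of all genes were. At an FDR below 0.05 none was higher and 2 lower, against 11.5% and 13.8% of all genes, and 9 of 10 log2 fold changes were below 0, with a median of -0.27 (0.00 over all genes). In IPO13-/- cells 1 of 10 was called (2.89% of all genes), 2 were higher (14.9%) and 2 lower (14.4%), and the median was 0.01.

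Between genotypes without treatment 1 member was called (4.71% of all genes), 1 was higher (18.7%) and 3 were lower (19.4%), with a median of -0.33. Among treated cells 0 were called (edgeR, with 4 at an unadjusted p below 0.05, and 0 by limma-voom and DESeq2, against 4.56% of all genes), 1 was higher (19.1%) and 2 were lower (17.5%). In the interaction Cubn passed as 1 of 10 higher (2.01%), and none was lower (0.705%). The stress and genotype comparisons share libraries, so their counts are not independent of each other.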

How the data were processed

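RNA was extracted with a column kit, polyadenylated RNA libraries were prepared, and paired-end reads were sequenced on an Illumina HiSeq (the labels and the methods differ on the model and read length). Per the labels, the authors' tools were bcl2fastq, STAR 2.3.1, HTSeq and limma with build mm10. Per the methods, differential expression was tested with voom in limma. The roles of the other tools, and the annotation and strand setting of counting, are not given in the sources used here. The authors deposited, for each of 8 libraries, whole-number counts per gene symbol without normalization, and CPM, which matched the counts scaled to the library total to within 0.0005. CPM as deposited entered no test.

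The 4 groups of 2 libraries were taken from the labels. Counts were analysed with edgeR 4.0.16 in R 4.3.3: TMM, genes with at least 1 count, 1 quasi-likelihood fit of all 8 libraries, and Benjamini-Hochberg adjustment over 19424 genes. The SE is the absolute log2 fold change over the square root of F. Voom in limma (3.58.1 here) was an alternative, as were DESeq2 1.42.0, other scalings and filters, a replicate block and leaving out each library. An exact permutation test of 2 against 2 cannot go below p = 0.333 and was not used for single genes. Exon lengths and positions came from GENCODE M21 (GRCm38), which matched 21712 symbols. RefSeq promoter windows were held for 5 members. The 2 repeated symbols in the tables are no members. The procedure was tested on simulated data.

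All members were named, with Ipo13, list genes called 2-fold changed or in the interaction (at most 3 each way, and only where 1 group had 10 or more counts in each library), and the 3 genes most like each called member. Any other gene was named after its values were seen, and 1 named list gene is not reported here. The members and lists were chosen with earlier results of these data known.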

Additional observations from a re-analysis of the deposited data

Results flagged for a closer look

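Cubn and 8 genes of the supporting lists passed the interaction test of the responses to H2O2 (edgeR, FDR below 0.05 over all genes). All passed as higher, as did 2.01% of all genes, and 0.705% passed as lower. The list genes were 3 of 10 ESC markers, and 1 each of 6 fibroblast markers, 11 signal genes, 13 relatives, 19 visceral endoderm genes and 12 receptor partners. Of 18 basement membrane genes 0 passed. With library totals 0 ESC markers, fibroblast markers and receptor partners passed. For Cubn the log2 fold change of IPO13-/- cells exceeded that of IPO13+/+ cells by 2.43 (SE 0.35, FDR = 9.8e-05), with both IPO13-/- libraries higher after treatment. Among the ESC markers the differences were 0.27 for Klf2 (SE 0.06, FDR = 0.014), 0.22 for Zfp42 (SE 0.06, FDR = 0.048) and 0.21 for Esrrb (SE 0.05, FDR = 0.020). Bmp4 differed by 0.47 (SE 0.06, FDR = 5.1e-05), with -0.61 in IPO13+/+ and -0.14 in IPO13-/- cells. Gata2 differed by 0.68 (SE 0.12, FDR = 0.0012), Apoe by 0.31 (SE 0.05, FDR = 0.00070), Thy1 by 0.47 (SE 0.13, FDR = 0.038) and Cltc by 0.23 (SE 0.06, FDR = 0.031). Each of the 8 list genes had 16 alternative fits with an adjusted p and Cubn 15, as DESeq2 gave Cubn none after independent filtering. Of these fits, Zfp42, Thy1 and Cltc each did not pass in 13, Esrrb in 10, Klf2 in 7, Apoe, Gata2 and Cubn in 1, and Bmp4 in 0.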

How the results depend on the processing

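Of 834 values of the members under 17 alternatives, 797 stayed on the same side of the threshold, 23 no longer passed and 14 newly passed. The sign changed in 51 of the 797, where neither value passed and the reported log2 fold change was at most 0.17 in size, and 0 results past the threshold reversed. A further 6 values of members, all in the interaction, had no adjusted p in DESeq2. Of 14 results past the threshold, 7 passed in every alternative with an adjusted p. In the interaction, DESeq2 called 0 members, because Cubn had no adjusted p after independent filtering. Without that filtering, a choice made after seeing the data, Cubn stood at 2.42 (FDR = 0.00024). In the response of IPO13+/+ cells, 1 member passed in a fit of only the libraries compared. Leaving out single libraries gave 1 to 4 members at an FDR below 0.05 in that response, 2 to 4 in that of IPO13-/- cells, 0 to 2 in the interaction, and 0 to 1 called between treated genotypes (Amn, at 1.12 without the first treated IPO13-/- library). Such fits assume that the lone library left varies like the other groups.

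Same-numbered replicates were not shown to be paired. The correlation of their deviations over 10277 genes ran from -0.055 to 0.54 in 6 pairs of groups. With the replicate block, 4 members passed in the response of IPO13+/+ cells, among them Cubn (-0.52, FDR = 0.016) and Gata6 (-0.47, FDR = 0.045), and 2 in the interaction (Gata4, 0.63, FDR = 0.032), and Gata4 and Sox7 passed as lower in untreated IPO13-/- cells. The block raised interaction calls over all genes from 527 to 1291, against 349 with filterByExpr, 255 with limma-voom, 294 with DESeq2, 251 without its filtering, and 73 to 1157 without single libraries.

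Scaling moved the share of higher genes among all past the threshold. For the response of IPO13+/+ cells it was 45.4%, against 60.5% with library totals, 56.0% with filterByExpr and 61.1% in a fit of the libraries compared. It went from 49.0% to 67.1% for untreated genotypes and from 74% to 30.8% for the interaction with library totals. Dab2 between treated genotypes did not pass in DESeq2 (FDR = 0.10) or limma-voom (FDR = 0.055). DESeq2 also lost Dab2 untreated (FDR = 0.052) and Amn after H2O2 in IPO13-/- cells (FDR = 0.056). Depth limits Foxa2 and Sox17, at 11 to 42 counts. It also limits Cubn in untreated IPO13-/- cells, at 15 and 23 counts, whose CPM differed 1.87-fold.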
